A study of Mus musculus with 43 samples.

Results

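Plasma cells were followed here through 10 genes: Jchain, Mzb1, Derl3, Xbp1, Prdm1, Irf4, Sdc1, Tnfrsf17, Pou2af1 and Fkbp11. They were found in the deposited table of expected counts (estimated read numbers per gene) by NCBI Gene ID. All 10 were present among its 24475 genes, and all 10 were among the 15979 genes that passed the filter on low counts. The table covers RNA sequencing of whole lung from 43 female mice on a mixed 129S6 and C57BL/6 background. An age of 8 to 12 weeks is given for every mouse, whatever its weeks of HDM. It therefore cannot be the age at lung collection, which the labels do not give. In the animals used to assess the antibodies, human sequence stood in for mouse IL-4, IL-33 and the outer domain of IL-4Rα. House dust mite extract (HDM) was applied to the nose 3 times a week. The groups were saline (n = 5), HDM for 11 weeks (n = 6) and HDM for 19 weeks (n = 7). The remaining groups had 19 weeks of HDM with antibody: itepekimab against IL-33 together with dupilumab against IL-4Rα, called the combination (n = 5), itepekimab plus isotype antibody, called anti-IL-33 (n = 6), dupilumab plus isotype antibody, called anti-IL-4Rα (n = 7), and isotype antibody alone, called isotype (n = 7). The labels do not say when antibody treatment of these mice began, how long saline was given, or whether the untreated mice carried the human sequences. They give 11 and 19 weeks where the design text gives 4, 15 and 19, and the labels were followed.

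Plasma cells are the antibody-secreting end stage of the B cell lineage. As a B cell differentiates, the transcription factors IRF4 and BLIMP-1 (Prdm1) install the secretory programme, XBP1 enlarges the endoplasmic reticulum, and chaperones and joining factors assemble immunoglobulin for export. In airways, cells secreting polymeric IgA sit beneath the epithelium, where the J chain and the polymeric immunoglobulin receptor carry antibody into mucus. Immunoglobulin genes themselves were not analysed here.

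The promoters of Jchain, Tnfrsf17, Pou2af1 and Irf4 are shown as examples. Each window is 300 bases, running from 250 before to 50 after the transcription start in RefSeq (GRCm38.p6), 5′ to 3′ on the strand of the gene, in lower case. Capitals mark a match to the cores searched on both strands: the octamer ATTTGCAT bound by OCT factors with the Pou2af1 product, the unfolded protein response element core TGACGTG bound by XBP1, the interferon stimulated response element core (GAAA, any 2 bases, GAAA) bound by IRF factors, and the BLIMP-1 core GAAAGTG. No pair of these cores overlapped in the windows shown. The windows are chr5:88527848-88528147 on the minus strand for Jchain, chr16:11313559-11313858 on the plus strand for Tnfrsf17, chr9:51213440-51213739 on the plus strand for Pou2af1 and chr13:30748983-30749282 on the plus strand for Irf4.
Jchain: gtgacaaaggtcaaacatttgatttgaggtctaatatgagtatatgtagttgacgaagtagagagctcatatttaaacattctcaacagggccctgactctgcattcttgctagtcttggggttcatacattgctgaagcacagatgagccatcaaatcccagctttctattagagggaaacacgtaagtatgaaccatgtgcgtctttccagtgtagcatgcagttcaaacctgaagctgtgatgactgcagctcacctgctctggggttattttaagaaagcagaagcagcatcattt
Tnfrsf17: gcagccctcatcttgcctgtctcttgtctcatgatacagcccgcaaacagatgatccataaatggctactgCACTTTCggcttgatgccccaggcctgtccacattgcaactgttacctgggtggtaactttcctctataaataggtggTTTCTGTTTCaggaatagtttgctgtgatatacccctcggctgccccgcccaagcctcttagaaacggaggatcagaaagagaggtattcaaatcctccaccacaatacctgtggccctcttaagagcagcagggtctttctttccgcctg
Pou2af1: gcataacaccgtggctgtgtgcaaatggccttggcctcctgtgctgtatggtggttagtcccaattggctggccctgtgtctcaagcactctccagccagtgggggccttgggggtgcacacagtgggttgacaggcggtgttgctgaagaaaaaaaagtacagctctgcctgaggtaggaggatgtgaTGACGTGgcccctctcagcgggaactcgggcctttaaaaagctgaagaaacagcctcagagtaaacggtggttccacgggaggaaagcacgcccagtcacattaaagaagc
Irf4: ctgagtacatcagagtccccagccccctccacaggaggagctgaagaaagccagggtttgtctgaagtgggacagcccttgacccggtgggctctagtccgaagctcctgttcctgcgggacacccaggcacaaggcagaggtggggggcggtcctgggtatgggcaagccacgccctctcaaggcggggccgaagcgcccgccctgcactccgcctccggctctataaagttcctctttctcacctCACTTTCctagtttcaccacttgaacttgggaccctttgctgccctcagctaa
None of the 4 cores was found in the Jchain window. The Tnfrsf17 window held the response element core on the minus strand from position -101 and the BLIMP-1 core on the minus strand from position -179, counted from the transcription start. The whole Tnfrsf17 window lies inside the gene, whose record begins at base 11313232 of chromosome 16, so this is an internal start. The Pou2af1 window held TGACGTG on the plus strand from position -61, and the Irf4 window held the BLIMP-1 core on the minus strand from position -3. Of 32851 such windows of 27025 genes, 1.74% held the octamer, 2.01% TGACGTG, 3.44% the interferon stimulated response element core and 4.81% GAAAGTG. Windows were at hand for 9 of the members, and the only other match was TGACGTG in 1 of the 2 windows of Fkbp11. A match describes these letters and is not evidence of binding.

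Library totals ran from 11932579 to 26749395 counts. Expression is given in CPM, read numbers scaled to a common library size with TMM factors. Differences are log2 fold changes ± SE from a single edgeR quasi-likelihood model of all libraries, with p-values adjusted by the Benjamini-Hochberg method over all 15979 genes, and a gene was called at an adjusted p under 0.05. In bulk tissue, more plasma cells and more of a transcript per cell cannot be told apart. Libraries also differed in how their counts depended on the GC content of transcripts. The GC slope (the change in a library's log2 CPM, relative to the mean of all libraries, per 10 percentage points of transcript GC) exceeded 0.75 in 10 libraries, 2 at 19 weeks of HDM, 3 of the combination, 2 of anti-IL-33 and 3 of anti-IL-4Rα, and in none of the saline, 11-week or isotype libraries. The saline libraries had slopes of -0.85 to -0.35 and the 11-week libraries -0.55 to -0.07, so the slope also moved with HDM. No gene of the lung epithelial list was at 0 throughout a group. Values without these 10 libraries are given beside the antibody comparisons they touch most. Replicate 3 was the highest of the 5 saline mice for all 10 genes, and Jchain and Tnfrsf17 are also given without it.

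Of the 10 genes, 8 were called higher after 11 weeks of HDM and 9 after 19 weeks, against 8.65% and 19.2% of all genes tested called higher in these comparisons. The median log2 fold change of the 10 was 2.41 at 11 weeks and 2.08 at 19 weeks, beside 0.00 and 0.01 for all genes. Overlap between exposed and saline mice is described below gene by gene. The share of all genes without such overlap was not computed. Jchain, Mzb1, Derl3 and Tnfrsf17 had the highest fold changes, Xbp1, Irf4, Pou2af1 and Fkbp11 rose with lower ones, Sdc1 was called at 19 weeks but not at 11, and Prdm1 was called at neither time.

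Genes of antibody assembly and secretion are described first. Jchain encodes the J chain that links IgA and IgM into polymers. Its level was 34.7, 44.0, 55.4, 235 and 421 CPM in the saline mice, between 1270 and 3790 CPM with a median of 2380 after 11 weeks of HDM, and between 986 and 3090 CPM with a median of 1200 after 19 weeks. The lowest exposed mouse of the study, at 734 CPM, stood above the highest saline mouse, and saline replicates 1 and 3 were well above the other saline mice. The log2 fold change over saline was 3.96 ± 0.63 at 11 weeks (adjusted p = 1.23e-05) and 3.36 ± 0.60 at 19 weeks (adjusted p = 4.33e-05). Without saline replicate 3 these became 4.72 and 4.12.

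Derl3 encodes a derlin that helps retrotranslocate misfolded proteins out of the endoplasmic reticulum. It was barely detected in saline lungs, at 0.272, 1.16, 1.21, 2.45 and 3.45 CPM, the lowest being 7 reads. After 11 weeks of HDM it lay between 17.0 and 42.9 CPM with a median of 37.5, and after 19 weeks between 18.4 and 77.8 CPM with a median of 41.2. No exposed mouse overlapped the saline mice, and the difference was 4.30 ± 0.58 at 11 weeks (adjusted p = 7.93e-07) and 4.61 ± 0.59 at 19 weeks (adjusted p = 1.53e-07), the largest of the 10 genes at both times.

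Mzb1, a cochaperone that aids immunoglobulin folding and secretion, stood at 4.01, 4.96, 7.0, 12.3 and 17.9 CPM in saline mice, at 53.5 to 143 CPM (median 88.8) after 11 weeks and at 51.7 to 176 CPM (median 77.1) after 19 weeks. The groups did not overlap at either time. Its log2 fold change was 3.32 ± 0.46 at 11 weeks (adjusted p = 1.08e-06) and 3.34 ± 0.45 at 19 weeks (adjusted p = 4.81e-07). Fkbp11, a peptidyl-prolyl isomerase of the secretory pathway, had 1.48, 1.49, 1.92, 3.07 and 3.21 CPM in saline mice, 6.33 to 12.6 CPM (median 8.84) after 11 weeks and 8.48 to 14.9 CPM (median 10.7) after 19 weeks. Again no exposed mouse reached down to the saline range, and the gene rose by 2.05 ± 0.29 and 2.30 ± 0.29 on the log2 scale (adjusted p = 1.59e-06 and 8.96e-08).

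Among surface receptors, Tnfrsf17 encodes BCMA, the receptor for the survival factors APRIL and BAFF on plasma cells. Its counts were at the edge of detection in saline lungs, with 3, 3, 4, 9 and 37 reads, or 0.117, 0.165, 0.132, 0.432 and 1.28 CPM in replicates 4, 2, 5, 1 and 3. After 11 weeks of HDM the mice had 2.37 to 7.0 CPM (median 4.98), and after 19 weeks 2.55 to 6.83 CPM (median 3.10). All exposed mice were above all saline mice, the closest being a combination mouse at 1.40 CPM against saline replicate 3 at 1.28 CPM. The log2 fold change was 3.41 ± 0.61 at 11 weeks (adjusted p = 8.1e-05) and 3.19 ± 0.60 at 19 weeks (adjusted p = 8.4e-05), or 4.45 and 4.22 without saline replicate 3.

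Sdc1 encodes syndecan-1 (CD138), used to sort plasma cells, but also abundant on epithelium. It had 129, 162, 171, 177 and 220 CPM in saline mice, 226 to 374 CPM (median 281) after 11 weeks and 328 to 1030 CPM (median 386) after 19 weeks. The 11-week mice all lay above the saline mice but by little, and the difference of 0.74 ± 0.50 was not called (adjusted p = 0.373). It was called without the 10 libraries of steep GC slope (0.73 ± 0.29, adjusted p = 0.0465), which include no mouse of either group, and in a fit of these groups alone (0.76 ± 0.16, adjusted p = 0.00251). At 19 weeks Sdc1 rose by 1.78 ± 0.50 (adjusted p = 0.00611), but with the GC slope as a covariate the difference was 0.44 ± 0.18 and was not called (adjusted p = 0.0593). The 5 mice at 19 weeks whose libraries were not steep had 328 to 747 CPM, above all saline mice. The summed level of 8 epithelial markers was 629 to 849 CPM in saline mice, 726 to 834 CPM after 11 weeks and 684 to 1230 CPM after 19 weeks, and 1 of the 8 was called at 11 weeks and 3 at 19 weeks, all higher. The part of epithelium in the Sdc1 values was not tested.

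The transcription factors had smaller fold changes than Jchain, Derl3, Mzb1 and Tnfrsf17. Xbp1, the regulator of the secretory and unfolded protein programme, had 123, 124, 145, 156 and 159 CPM in saline mice, 302 to 556 CPM (median 443) after 11 weeks and 227 to 439 CPM (median 361) after 19 weeks. With no overlap between the groups, it rose by 1.64 ± 0.27 and 1.26 ± 0.26 on the log2 scale (adjusted p = 1.85e-05 and 0.000233). Secretory epithelium also uses Xbp1, and the summed level of 8 goblet cell markers moved too, at 34.6 to 81.2 CPM in saline mice, 223 to 1090 CPM after 11 weeks and 157 to 927 CPM after 19 weeks. Its part in the Xbp1 values was not tested.

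Irf4, needed for both class switching and plasma cell fate, had 11.0, 12.4, 13.4, 18.1 and 20.2 CPM in saline mice, 46.4 to 115 CPM (median 80.7) after 11 weeks and 26.3 to 80.1 CPM (median 50.1) after 19 weeks. Pou2af1 encodes OCA-B, a coactivator of octamer promoters in B cells and plasma cells. It had 14.4, 20.1, 30.1, 33.6 and 35.5 CPM in saline mice, 76.5 to 198 CPM (median 153) after 11 weeks and 58.3 to 153 CPM (median 86.5) after 19 weeks. For both genes the exposed and saline groups were apart at both times. Irf4 rose by 2.41 ± 0.41 and 1.86 ± 0.40 (adjusted p = 4.19e-05 and 0.000421), and Pou2af1 by 2.40 ± 0.36 and 1.82 ± 0.35 (adjusted p = 5.58e-06 and 0.000105), at 11 and 19 weeks in turn.

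Prdm1 was the exception. The gene for BLIMP-1, the repressor that extinguishes the B cell programme, had 16.5, 18.2, 20.2, 20.6 and 25.5 CPM in saline mice, 16.1 to 33.0 CPM (median 24.6) after 11 weeks and 10.4 to 24.6 CPM (median 18.3) after 19 weeks. The 3 groups overlapped throughout. Its log2 difference from saline was 0.27 at 11 weeks (95% interval -0.58 to 1.12, adjusted p = 0.752) and -0.14 at 19 weeks (interval -0.96 to 0.67, adjusted p = 0.797). Of the 38 exposed mice of the study, 6 exceeded the highest saline mouse for Prdm1, compared with 38 for Jchain, Derl3, Tnfrsf17 and Fkbp11, 37 for Mzb1, 36 for Sdc1, 35 for Xbp1, 34 for Pou2af1 and 33 for Irf4. T cells, macrophages and epithelium also transcribe Prdm1.

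**Figure D1:**
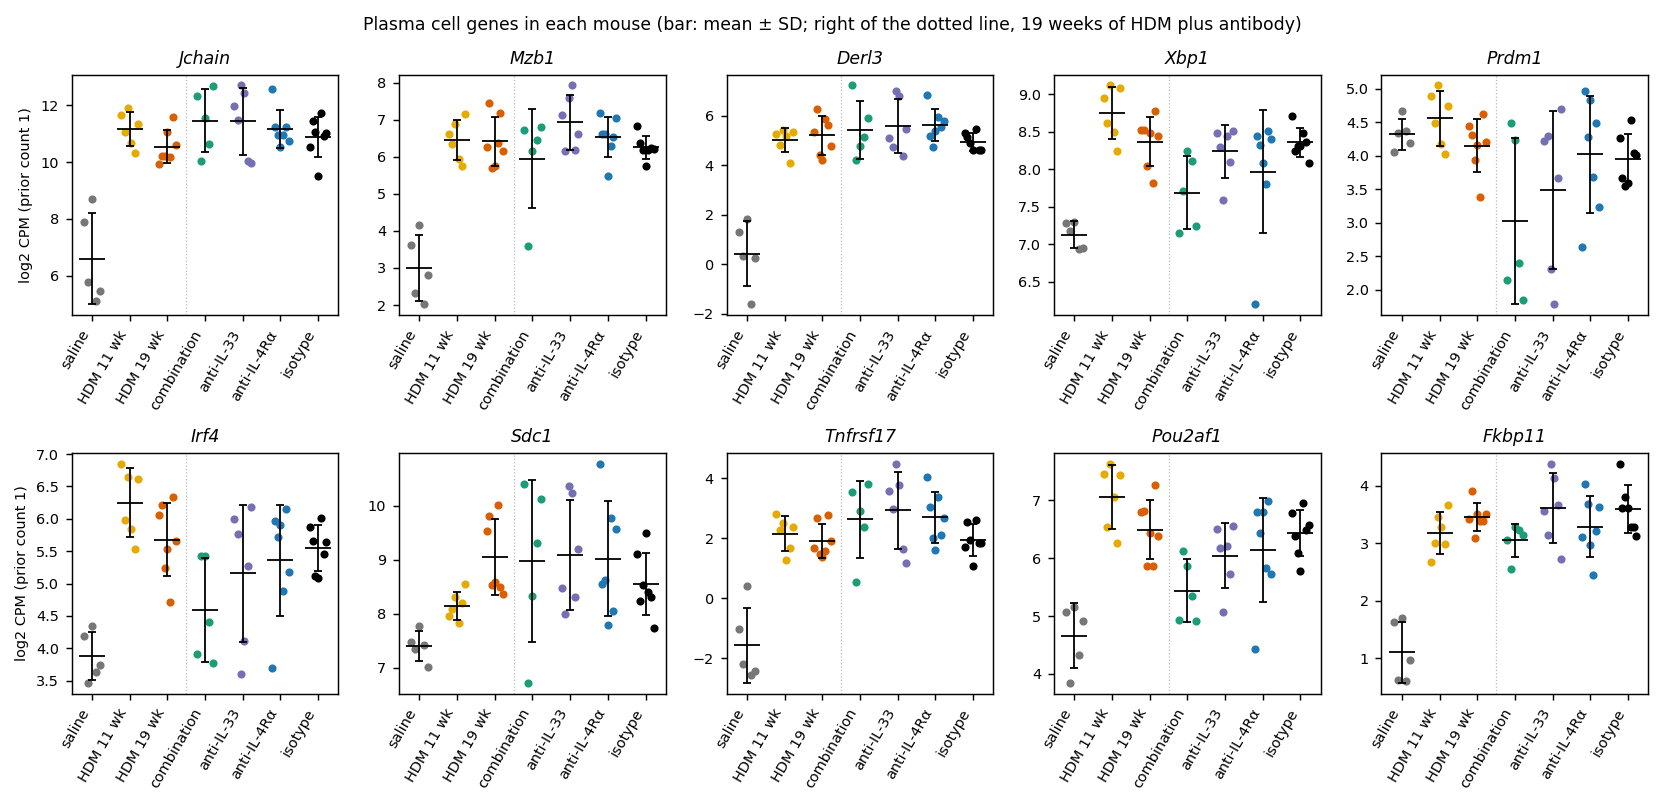
Level of each plasma cell gene in every mouse, as log2 CPM with a prior count of 1, by group; points are mice, bars the mean ± SD, and the dotted line separates the groups given antibody during 19 weeks of HDM. Jchain, Derl3, Tnfrsf17 and Fkbp11 show no overlap between saline and any exposed group, while Prdm1 overlaps saline in each of them. The share of all genes without overlap was not computed.

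**Figure D2:**
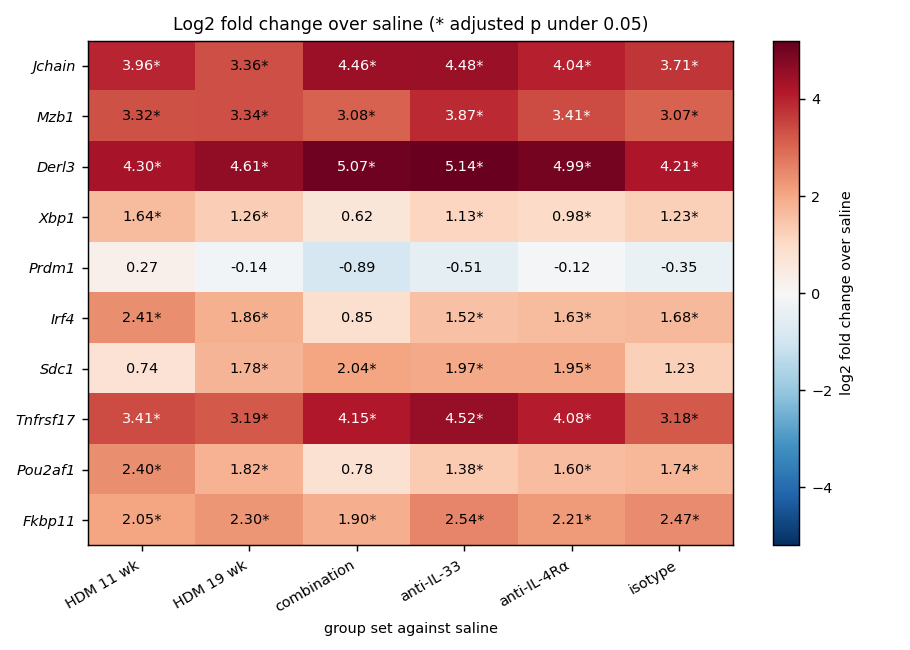
Log2 fold change over saline of each plasma cell gene (rows) in the 6 exposed groups (columns), with a star where the adjusted p was under 0.05. Derl3 has the largest value in every column, from 4.21 in isotype to 5.14 in anti-IL-33, and Prdm1 has no star.

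The plasma cell genes were compared between 19 and 11 weeks of HDM to ask whether they differed with longer exposure. Age at lung collection is not given for these groups, so exposure and age cannot be told apart. None of the 10 was called, where 0.106% of all genes were (17 by edgeR, with 2296 at an unadjusted p under 0.05, and 70 higher and 30 lower by DESeq2), and DESeq2 also called none of the 10. Sdc1 was the only member at an unadjusted p under 0.05, with a log2 difference of 1.04 (95% interval 0.11 to 1.97, adjusted p = 0.329). Jchain averaged 1620 ± 754 CPM (SD, n = 7) at 19 weeks and 2450 ± 960 CPM (SD, n = 6) at 11 weeks, a log2 difference of -0.60 (95% interval -1.61 to 0.40, adjusted p = 0.506). Irf4, Pou2af1 and Xbp1 gave -0.56, -0.57 and -0.38, and Mzb1 0.02, all with intervals that include 0. The isotype group, set against 19 weeks of HDM without antibody, also had none of the 10 called or at an unadjusted p under 0.05, beside 0.0% of all genes (0 by edgeR, with 341 at an unadjusted p under 0.05, and 2 higher and 1 lower by DESeq2). The members' log2 differences there ran from -0.55 for Sdc1 to 0.36 for Jchain.

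Antibody groups were compared with isotype to ask whether blocking IL-33, IL-4Rα or both changed the plasma cell genes. No member was called lower under either single antibody, and 1, Pou2af1, was called lower under the combination. Log2 differences from isotype were positive for 6 of the 10 under each single antibody and for 5 under the combination. Under anti-IL-33, 0 of the 10 were called, beside 0.0% of all genes (0 by edgeR, with 2878 at an unadjusted p under 0.05 and a lowest adjusted p of 0.246, and 8 by DESeq2, none of them a member). Tnfrsf17 averaged 10.1 ± 7.49 CPM with anti-IL-33 (SD, n = 6) and 3.99 ± 1.43 CPM with isotype (SD, n = 7), a log2 difference of 1.33 ± 0.48 (adjusted p = 0.246). Its values ran from 2.21 to 22.3 CPM with anti-IL-33 and from 2.07 to 6.07 CPM with isotype, with overlap. Mzb1 (0.81) and Derl3 (0.94) also had an unadjusted p under 0.05 and an adjusted p of 0.269 and 0.271. The 2 steep anti-IL-33 libraries had 112 and 128 CPM of Derl3 and the other 4 had 20.6 to 43.8 CPM, and for Mzb1 the steep ones had 192 and 242 CPM and the others 71.1 to 139 CPM. Once the 10 steep libraries were left out, the differences from isotype were -0.02 ± 0.34 for Derl3, 0.30 ± 0.38 for Mzb1 and 0.65 ± 0.48 for Tnfrsf17, the lowest adjusted p of the 3 being 0.919. With the GC slope in the model they were 0.21, 0.35 and 0.86, with a lowest adjusted p of 0.54. Jchain ran from 1010 to 6680 CPM (median 3460) with anti-IL-33 and from 734 to 3360 CPM (median 2100) with isotype, a log2 difference of 0.77 (95% interval -0.24 to 1.77, adjusted p = 0.357), or 0.12 ± 0.53 without the steep libraries.

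Under anti-IL-4Rα, again 0 of the 10 were called or at an unadjusted p under 0.05, beside 0.0% of all genes (0 by edgeR, with 2242 at an unadjusted p under 0.05, and 14 by DESeq2, none of them a member). Jchain ran from 1470 to 6170 CPM (median 2010) with anti-IL-4Rα, and its log2 difference from isotype was 0.32 (95% interval -0.64 to 1.29, adjusted p = 0.746). Irf4 lay at -0.05 (interval -0.74 to 0.64) and Xbp1 at -0.25 (interval -0.71 to 0.21). These intervals still hold differences of about 1 log2 unit for the more variable genes, so equal levels were not shown.

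Under the combination, 0 of the 10 were called higher, where 12.6% of all genes were, and 1 was called lower, where 6.32% of all genes were. Pou2af1 had 30.2, 30.4, 40.8, 58.5 and 70.0 CPM with the combination, and 55.0 to 124 CPM (median 90.2) with isotype. The groups overlapped through the 2 highest combination mice, and the log2 difference was -0.96 ± 0.34 (adjusted p = 0.0431). The call did not hold with the GC slope as a covariate (-0.80, adjusted p = 0.0571) or without the 10 steep libraries (-0.48 ± 0.35, adjusted p = 0.392), which include the 3 lowest combination mice for this gene. It was also lost when any of isotype replicates 1, 2, 3, 6, 8 and 9 or combination replicates 1, 5 and 8 was left out, with adjusted p-values up to 0.19.

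The other transcription factors had values on the same side without being called. Irf4 had 13.7, 15.0, 21.1, 42.8 and 43 CPM with the combination and 33.9 to 64.9 CPM with isotype, a log2 difference of -0.82 ± 0.38 (adjusted p = 0.103). Xbp1 had 142, 151, 209, 276 and 304 CPM with the combination and 273 to 418 CPM (median 318) with isotype, a difference of -0.61 ± 0.25 (adjusted p = 0.0723). Prdm1 had 3.56, 4.38, 5.22, 18.7 and 22.4 CPM with the combination and 11.7 to 23.1 CPM (median 16.1) with isotype, a difference of -0.54 ± 0.41 (adjusted p = 0.31). The lowest 3 values of Irf4 and of Prdm1 came from the same mice, replicates 1, 5 and 8, whose libraries had steep GC slopes. Without the 10 steep libraries the differences were -0.16 ± 0.30 for Irf4 (adjusted p = 0.76), -0.36 ± 0.21 for Xbp1 (adjusted p = 0.266) and 0.38 ± 0.26 for Prdm1 (adjusted p = 0.363), so Prdm1 turned sign. With the GC slope in the model they were -0.63, -0.52 and -0.45, with adjusted p-values of 0.149, 0.112 and 0.278.

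Secretory genes of the combination group showed no common direction against isotype. Jchain had 1050, 1590, 3030, 5180 and 6510 CPM with the combination, spread wider than the 734 to 3360 CPM with isotype, and a log2 difference of 0.74 (95% interval -0.31 to 1.79, adjusted p = 0.269). Derl3 had 18.5, 27.3, 34.7, 59.4 and 149 CPM with the combination and 24.4 to 43.9 CPM (median 29.8) with isotype, a difference of 0.87 (interval -0.08 to 1.81, adjusted p = 0.157). Its 3 highest values were those of the steep libraries. The difference was -0.46 ± 0.45 (adjusted p = 0.524) once the 10 steep libraries were left out, with the opposite sign, and 0.08 ± 0.34 (adjusted p = 0.883) with the GC slope in the model. Mzb1 differed by 0.01 (interval -0.79 to 0.81) and Fkbp11 by -0.57 (interval -1.11 to -0.03, adjusted p = 0.105). Without the steep libraries Jchain, Mzb1 and Fkbp11 gave -0.02 ± 0.68, -0.88 ± 0.52 and -0.67 ± 0.34, none of them called. Sdc1 had 105, 320, 633, 1120 and 1350 CPM with the combination and 214 to 722 CPM with isotype, a difference of 0.81 ± 0.47 (adjusted p = 0.185), and its sign turned without the 10 steep libraries (-0.91, adjusted p = 0.152). Leaving out combination replicate 2 brought Irf4 (-1.05, adjusted p = 0.034), Sdc1 (1.09, adjusted p = 0.0451) and Tnfrsf17 (1.24, adjusted p = 0.0366) under the threshold, and leaving out replicate 3 brought in Irf4 (-1.06, adjusted p = 0.0498) and Xbp1 (-0.77, adjusted p = 0.0345).

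**Figure D3:**
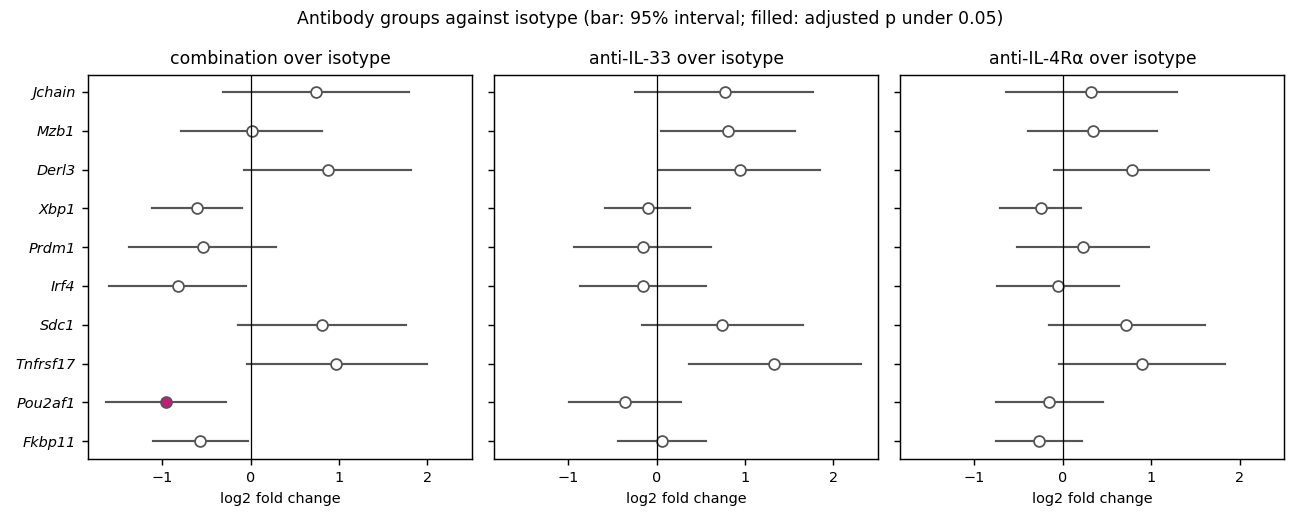
Log2 fold change of each plasma cell gene over isotype in the combination, anti-IL-33 and anti-IL-4Rα groups, with 95% intervals; a filled point has an adjusted p under 0.05. Pou2af1 under the combination, at -0.96, is the only filled point.

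Set against the single antibodies, the combination had 0 of the 10 called over anti-IL-33 (0.0438% of all genes, 7 by edgeR, with 778 at an unadjusted p under 0.05, and 2 higher and 18 lower by DESeq2) and 0 over anti-IL-4Rα (0.119% of all genes, 19 by edgeR with 1707 at an unadjusted p under 0.05, and 32 higher and 122 lower by DESeq2). Anti-IL-4Rα against anti-IL-33 also had 0 called (0.0% of all genes, 0 by edgeR with 409 at an unadjusted p under 0.05, and 1 higher and 3 lower by DESeq2). DESeq2 called none of the 10 in these 3 comparisons, and 1, 2 and 0 of the 10 had an unadjusted p under 0.05. The interaction of the antibodies, whether the effect of one depended on the other, was called for 0 of the 10 (0.0% of all genes, 0 by edgeR with 321 at an unadjusted p under 0.05, and 3 lower by DESeq2, none of them a member), and its lowest adjusted p over all genes was 0.718. Mzb1 had the lowest unadjusted p of the 10, with an interaction of -1.14 (95% interval -2.25 to -0.02, adjusted p = 0.995).

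Against saline, most of the plasma cell genes were still high in the antibody groups. The combination had 6 of the 10 called higher (27.8% of all genes), anti-IL-33 had 9 (25.2% of all genes), anti-IL-4Rα had 9 (25.9% of all genes) and isotype had 8 (13.0% of all genes). These comparisons share the saline mice. Jchain was higher than saline by 4.46 ± 0.65 in combination mice, 4.48 ± 0.64 in anti-IL-33 mice, 4.04 ± 0.62 in anti-IL-4Rα mice and 3.71 ± 0.61 in isotype mice, the largest adjusted p of the 4 being 1.34e-05. Without saline replicate 3, these were 5.21, 5.24, 4.80 and 4.48. Derl3 was higher by 5.07 ± 0.61 with the combination (4.35 without combination replicate 1), 5.14 ± 0.61 in anti-IL-33 mice, 4.99 ± 0.60 in anti-IL-4Rα mice and 4.21 ± 0.58 in isotype mice.

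The combination differed in call from the other groups for the transcription factors. Xbp1 (0.62 ± 0.27, adjusted p = 0.0547), Irf4 (0.85 ± 0.41, adjusted p = 0.0778) and Pou2af1 (0.78 ± 0.36, adjusted p = 0.0651) were not called over saline there, while each was called over saline with isotype, at 1.23, 1.68 and 1.74. All 3 were called over saline once the model held the GC slope (0.82, 1.40 and 1.18) and once the 10 steep libraries were left out (0.85, 1.5 and 1.25). Prdm1 lay at -0.89 ± 0.44 (adjusted p = 0.0902) and was called lower when combination replicate 2 (-1.33, adjusted p = 0.0127) or replicate 3 (-1.21, adjusted p = 0.0329) was left out. Those 2 are the combination libraries that were not steep, and leaving out either takes away 1 of the 2 mice with 18.7 and 22.4 CPM of Prdm1. Without the 10 steep libraries the Prdm1 difference was 0.01 ± 0.28 (adjusted p = 0.979), and with the GC slope in the model -0.32 ± 0.34 (adjusted p = 0.522). Xbp1 was called higher when combination replicate 1 (0.74, adjusted p = 0.0424) or replicate 8 (0.72, adjusted p = 0.0426) was left out. Sdc1 was called over saline with the combination (2.04 ± 0.53, adjusted p = 0.00292), anti-IL-33 (1.97 ± 0.52) and anti-IL-4Rα (1.95 ± 0.51), and not with isotype (1.23 ± 0.49, adjusted p = 0.0617; 1.32, adjusted p = 0.0439 without isotype replicate 9). With the GC slope as a covariate Sdc1 was called in none of these 3, at 0.13, 0.32 and 0.28. The slope also differed between saline and exposed mice, so this fit cannot tell slope and exposure apart. In libraries that were not steep, Sdc1 had 105 and 320 CPM with the combination, 254 to 584 CPM with anti-IL-33 and 220 to 396 CPM with anti-IL-4Rα. Saline mice had 129 to 220 CPM.

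Some of the 10 genes split by the GC slope of the library, while Xbp1 overlapped between steep and other libraries in all 4 groups that held both kinds. Within the combination group, the 3 steep libraries had 633 to 1350 CPM of Sdc1 and the other 2 had 105 and 320 CPM, whereas Prdm1 stood at 3.56 to 5.22 CPM in the steep libraries and at 18.7 and 22.4 CPM in the others. Within anti-IL-33, the 2 steep libraries had 12.1 and 17.3 CPM of Irf4 and the other 4 had 38.5 to 72.5 CPM. Within anti-IL-4Rα, the 3 steep libraries had 21.5 to 56.9 CPM of Pou2af1 and the other 4 had 86.1 to 127 CPM. Derl3 and Sdc1 did not overlap between steep and other libraries in any of these 4 groups, with the steep ones higher. Irf4 and Prdm1 did not overlap in the 3 groups given blocking antibody, with the steep ones lower, but overlapped at 19 weeks of HDM without antibody. Each split rests on 2 or 3 steep libraries in a group. The share of all genes that split in this way was not computed, so the splits are not a trait particular to these genes.

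Transcript GC content was 58.9% for Sdc1, 59.2% for Derl3 and 56.7% for Mzb1, and 48.8% for Prdm1, 47.6% for Irf4 and 47.7% for Pou2af1. Jchain, at 38.8%, had the lowest GC content of the 10, and its level overlapped between steep and other libraries in each group except anti-IL-33, where the steep ones had 5530 and 6680 CPM and the others 1010 to 4040 CPM. With the slope as a covariate, Derl3 was still called over saline in all 6 exposed groups, at 3.66 at 19 weeks and 3.81 with the combination. The Mzb1 log2 fold change over saline with the combination was 3.08 without the covariate and 2.12 with it. In the combination group the slope and Mzb1 were both lowest in replicate 2, at -0.99 and 12.1 CPM.

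**Figure D4:**
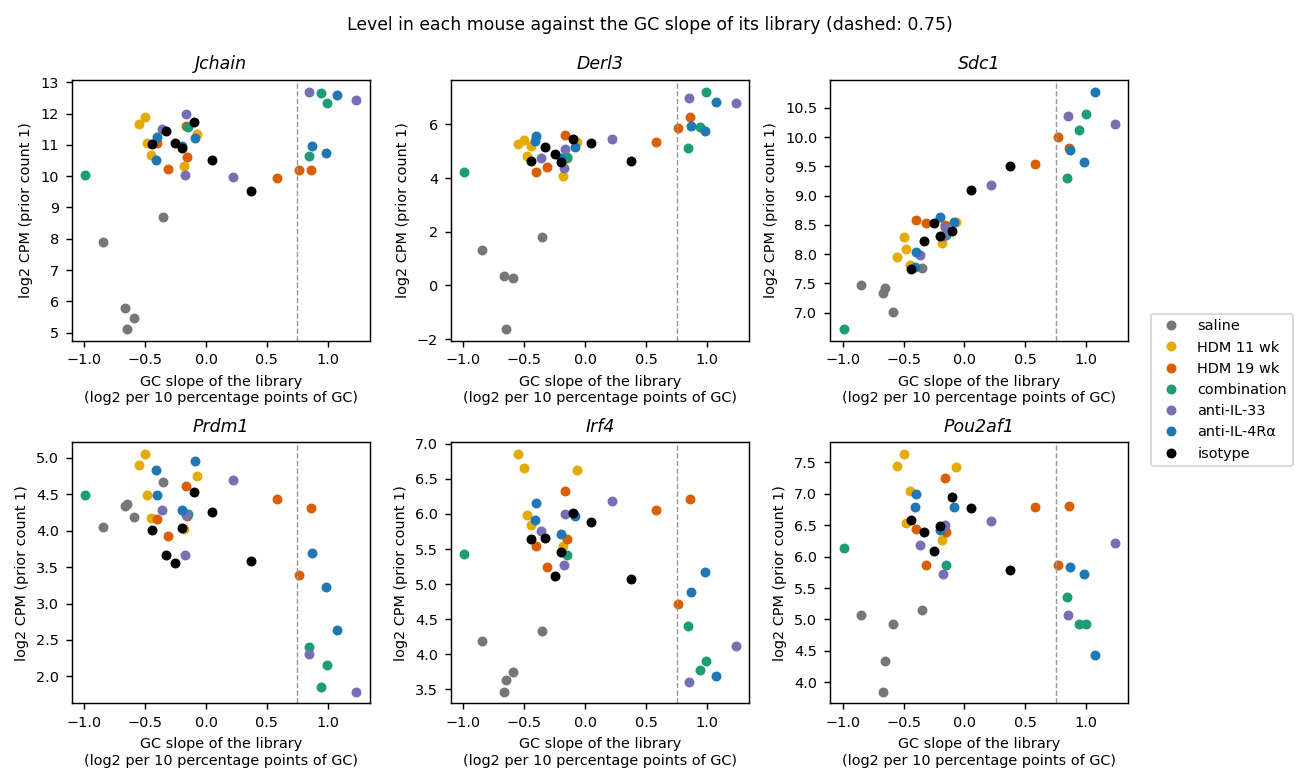
Level of 6 plasma cell genes in each mouse (log2 CPM, prior count 1) against the GC slope of its library (log2 per 10 percentage points of transcript GC); colours are groups and the dashed line is at 0.75. Sdc1 and Derl3 are high, and Prdm1, Irf4 and Pou2af1 mostly lower than in other exposed mice, in libraries right of the line.

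Most other plasma cell genes examined outside the 10 were also called higher. Of 10 such genes, 8 were called higher than saline at 11 weeks and 7 at 19 weeks, with medians of 1.63 and 1.29, and 6, 7, 7 and 8 with the combination, anti-IL-33, anti-IL-4Rα and isotype. Over all genes, 8.65% and 19.2% were called higher at 11 and 19 weeks. With these antibodies, in the same order, the shares were 27.8%, 25.2%, 25.9% and 13.0%. At 19 weeks, Ccr10, the receptor that draws IgA-secreting cells to mucosal epithelium, had 2.46 ± 2.86 CPM (SD, n = 7) and 0.113 CPM on average in saline mice, a log2 fold change of 4.36 ± 0.88 (adjusted p = 0.000212) with overlapping groups. Slamf7, a surface receptor of plasma cells and cytotoxic cells, rose by 1.99 ± 0.34, Creld2, an endoplasmic reticulum protein, by 1.94 ± 0.23, and Sec11c, a signal peptidase subunit, by 1.61 ± 0.26, the largest adjusted p of the 3 being 2.14e-05. Cd38, which plasma cells share with many leukocytes, was called lower with the combination (-1.64) and anti-IL-33 (-1.47).

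Most genes of a list of machinery that folds and exports secreted protein were called higher as well. Of 12 chaperones, translocon subunits and degradation factors, 8 were called higher than saline at 11 weeks and 8 at 19 weeks, none lower, with medians of 1.01 and 0.79. Over all genes, 8.65% and 19.2% were called higher at these times. Sdf2l1, an endoplasmic reticulum chaperone cofactor, rose by 2.41 ± 0.34 at 19 weeks, Edem1, which sorts misfolded glycoproteins for degradation, by 1.56 ± 0.28, Manf, a stress-induced secreted factor, by 1.46 ± 0.16, and Ssr4, a translocon subunit, by 1.41 ± 0.27. Hspa5, the chaperone BiP, reached 0.91 and was called at 11 weeks, and reached 0.52 without being called at 19 weeks. The list had 8, 7, 10 and 10 members called higher in the combination, anti-IL-33, anti-IL-4Rα and isotype groups, beside 27.8%, 25.2%, 25.9% and 13.0% of all genes. Against isotype, the combination had Dnajb9 called higher (0.85 ± 0.25) and Edem1 (-0.81 ± 0.27) and Sel1l (-0.95 ± 0.32) called lower. In that comparison 12.6% of all genes were called higher and 6.32% lower. Without the 10 steep libraries 1 gene of this list was called higher than isotype and 0 lower, and with the GC slope in the model 1 and 1.

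Among signals that keep and place plasma cells, of 12 genes, 8 were called higher than saline at 11 weeks, 7 at 19 weeks, and 5, 6, 6 and 6 with the combination, anti-IL-33, anti-IL-4Rα and isotype, none lower. The shares of all genes called higher were, in the same order, 8.65%, 19.2%, 27.8%, 25.2%, 25.9% and 13.0%. The polymeric immunoglobulin receptor Pigr rose by 3.49 ± 0.47 at 19 weeks, to 631 ± 199 CPM (SD, n = 7) against 56.1 CPM in saline mice. Il6, a survival cytokine, rose by 3.79 ± 0.65 but stayed low, at 3.18 ± 2.27 CPM against 0.215 CPM in saline mice. Tnfsf13, which encodes APRIL, rose by 1.19 ± 0.18, and Cxcl12, the niche chemokine, by 1.32 ± 0.28. Tnfsf13b, which encodes BAFF, was not called (0.46, adjusted p = 0.213).

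Between combination and isotype, 1 of these 12 genes was called higher and 2 lower, beside 12.6% and 6.32% of all genes. Tnfsf13 was called higher, with 102 ± 14.1 CPM (SD, n = 5) under the combination and 67.1 ± 8.15 CPM (SD, n = 7) with isotype and no overlap (0.61 ± 0.18, adjusted p = 0.0232). Tnfsf13b was called lower (-0.86 ± 0.30, adjusted p = 0.0413), as was Cxcl12 (-0.90 ± 0.28, adjusted p = 0.0278). Without the 10 steep libraries 1 of the 12 was called higher and 0 lower, and with the GC slope in the model 1 and 2.

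Most B cell genes were not called higher. Of 12, 1 was called higher and 0 lower than saline at 11 weeks, and 0 higher and 6 lower at 19 weeks, with medians of 0.18 and -0.72. Of all genes, 6.74% were called lower at 11 weeks and 15.6% at 19 weeks. Cr2, the complement receptor of mature B cells, fell by 2.30 on the log2 scale at 19 weeks, Ms4a1, which encodes CD20, by 1.83, and Bank1, a B cell scaffold, by 1.67. Counts lower than saline were 4, 2, 6 and 4 with the combination, anti-IL-33, anti-IL-4Rα and isotype, with 1 gene higher with isotype, where 20.3%, 17.9%, 18.6% and 12.4% of all genes were called lower. With the GC slope in the model the combination had 0 higher and 1 lower, and 19 weeks of HDM had 2 higher and 6 lower. The summed level of the 12 was 199 to 482 CPM in saline mice, 267 to 555 CPM at 11 weeks and 192 to 337 CPM at 19 weeks, and no gene of the list was at 0 throughout a group.

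Of 10 germinal centre genes, 9 passed the filter. At 11 weeks 2 were called higher, among them Basp1 (2.23 ± 0.31). At 19 weeks 1 was higher, Basp1, and 2 lower, Fcrl5 (-1.61) and Cxcr5 (-1.44). In the combination group 3 were higher and 2 lower, in anti-IL-33 mice 1 and 1, in anti-IL-4Rα mice 2 and 1, and in isotype mice 2 and 1. Over all genes, 8.65% were called higher and 6.74% lower at 11 weeks, and 19.2% and 15.6% at 19 weeks. These shares were 27.8% and 20.3% with the combination and 25.2% and 17.9% with anti-IL-33. They were 25.9% and 18.6% with anti-IL-4Rα, and 13.0% and 12.4% with isotype.

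**Figure D5:**
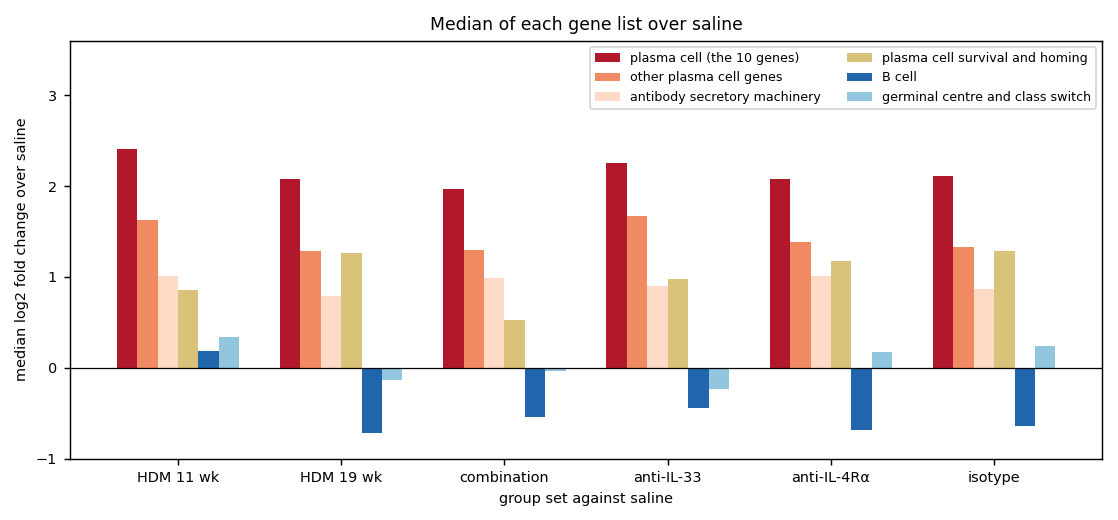
Median log2 fold change over saline (vertical axis) of the 10 plasma cell genes and of 5 further gene lists in each exposed group; bars are medians over the tested genes of a list and carry no error bar. At 19 weeks the 10 genes stand at 2.08 and the B cell genes at -0.72.

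Some markers of other cells moved in the same comparisons. At 19 weeks, all 8 goblet cell markers were called higher than saline. Of 8 macrophage markers 3 were higher, of 8 T cell markers 3 were lower, and of 8 epithelial markers 3 were higher. Of 6 tested lymph node stroma and venule markers 1 was higher and 2 lower. Beside these, 19.2% of all genes were called higher and 15.6% lower. The median log2 fold change was 3.19 for the goblet cell list, 0.10 for macrophage, -0.65 for T cell and 0.39 for epithelium. The macrophage sum was 417 to 723 CPM in saline mice, 1030 to 1730 CPM at 11 weeks and 1210 to 1630 CPM at 19 weeks. Their part in the levels of the plasma cell genes was not tested.

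The 5 genes most like Jchain across the 43 libraries were sought by the root mean square difference of log2 CPM after centring each gene on its own mean. Among non-members these were Oosp1 (0.61), Cacna1h, a calcium channel subunit (0.77), Bhlha15, the secretory cell factor MIST1 (0.85), Wfdc17 (0.88) and the chemokine Ccl6 (0.88). Of the members, Tnfrsf17 (0.49) was nearest of all genes tested, Derl3 (0.74) was the third, Mzb1 (0.80) the fifth, Fkbp11 (1.14) ranked 64, and Prdm1 (2.11) ranked 12925. Oosp1 averaged 0.319 ± 0.266 CPM in saline mice (SD, n = 5), 10.5 ± 4.25 CPM at 11 weeks (n = 6) and 8.03 ± 2.85 CPM at 19 weeks (n = 7), a log2 fold change of 4.99 ± 0.56 and 4.60 ± 0.55 over saline (adjusted p = 2.06e-08 and 4.31e-08). Bhlha15 was higher by 3.23 ± 0.48 and 3.70 ± 0.49. Under the combination Bhlha15 (1.15 ± 0.41, adjusted p = 0.0452) and Ccl6 (1.58 ± 0.32, adjusted p = 0.00549) were called higher than with isotype, where 12.6% of all genes were. Bhlha15 ran from 9.26 to 86.9 CPM with the combination and from 16.1 to 24.3 CPM with isotype, with overlap. Ccl6 ran from 1760 to 3810 CPM and from 701 to 1450 CPM, without overlap. Values without the steep libraries are not reported here for these 2 genes. This likeness rests on libraries that share the GC slopes described above, and it is a description without a test.

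Levels of different genes can be compared only per length of transcript. The length of the longest GENCODE transcript of each gene was used, and another choice of transcript could change the order of close values. At 19 weeks of HDM, mean levels in CPM per kilobase were 691 for Jchain, 187 for Sdc1, 159 for Xbp1, 104 for Mzb1, 37.2 for Pou2af1, 31.7 for Derl3, 11.4 for Irf4, 4.92 for Tnfrsf17, 4.59 for Fkbp11 and 3.46 for Prdm1. In saline mice Jchain, at 67.5 ± 72.1, stood beside Xbp1 at 66.4 ± 8.10 and Sdc1 at 54.3 ± 10.4 (SD, n = 5), neighbours that do not differ beyond their spread. The coefficient of variation within groups separated the genes further. For Jchain it was 107% in saline mice, 39.2% at 11 weeks and 46.5% at 19 weeks, and for Xbp1 it was 12.2%, 23.6% and 21.0%. For Sdc1 it was 74.3% with the combination, 70.1% in anti-IL-33 mice, 81.6% in anti-IL-4Rα mice and 43.3% in isotype mice.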

How the data were processed

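RNA from 43 mouse lungs (500 ng each) was made into libraries with a KAPA stranded mRNA kit and 12 PCR cycles and read as single 33-cycle reads, per the labels' protocols. The authors deposited one table of expected counts (estimated read numbers per gene), unnormalised, in which 76.8% of the nonzero values are whole. The submitters' processing notes name genome build mm10. For the aligner, counter, annotation and use of strand: not given in the sources used here. Symbols for 24375 of 24475 gene IDs came from a RefSeq table of GRCm38.p6, and transcript GC content (24081 genes) from GENCODE transcripts.

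Expected counts were rounded and analysed in R 4.3.3 with edgeR 4.0.16: filterByExpr, TMM scaling, and a robust quasi-likelihood fit of the 7 groups to all libraries (residual df 36; common biological coefficient of variation 0.431), with Benjamini-Hochberg adjustment over 15979 genes and a threshold of 0.05. The procedure was run on simulated counts with the same dispersion for all genes and no differences in GC slope. That run does not bear on the steep libraries. Log2 CPM used a prior count of 1. Groups and replicate numbers came from the labels, which do not say that replicates came from separate experiments, so p-values measure the spread between these samples. Fold changes of genes near 0 in saline, such as Tnfrsf17, Ccr10 and Il6, depend on few reads.

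Alternatives were DESeq2 1.42.0, its size factors in edgeR, no filter on low counts, the compared groups alone, the replicate number as a block, the GC slope as a covariate, removal of the 10 libraries of slope above 0.75, and removal of each replicate in turn. The 10 genes and all lists were chosen with earlier results of these data known. Besides the 10 genes, the text names up to 4 called genes of a list with the largest absolute fold change, examples from the secretory and survival lists, and the 5 genes nearest to Jchain. Cd38 was named after its values were seen. Immunoglobulin genes and the promoter of Mzb1 were not analysed here. Some genes of the lists are counted but not reported here by name.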

Additional observations from a re-analysis of the deposited data

Results flagged for a closer look

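Of 70 sets of values (10 genes in 7 groups), 3 held a mouse far from the rest of its group by Dixon's criterion, which chance gives in about 1 in 20 sets. Jchain stood at 6170 CPM in anti-IL-4Rα replicate 2, where the other mice of the group had 1470 to 2440 CPM. Xbp1 stood at 73.5 CPM in the same mouse, where the others had 223 to 366 CPM. Its library had a GC slope of 1.07. Mzb1 stood at 12.1 CPM in combination replicate 2, where the others had 71.6 to 112 CPM, and that library had the lowest GC slope of all, -0.99. The part of the slope in these values was not tested.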

How the results depend on the processing

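The counts of the 10 genes called over saline stayed within 1.5 times of the values reported under the alternatives run (8 to 9 at 11 weeks, at 19 weeks and in the isotype, anti-IL-33 and anti-IL-4Rα groups, and 6 to 8 with the combination). The comparison of combination with isotype did not: the single call became 2 with DESeq2, which added Xbp1 (-0.58, adjusted p = 0.0483), and 0 without the filter on low counts, with the replicate block, with the GC slope in the model, and when the 10 libraries of steep slope were left out. Leaving out 1 replicate gave from 0 to 4 calls. The cause was not tested. Of the single-gene values under alternatives, 2957 kept their side of the threshold, 25 passed it and 18 lost it. The sign did not change in any of the 946 values called in the reported or the alternative setting, but it did in 146 of the 2054 called in neither, among them Derl3, Sdc1 and Prdm1 for combination against isotype without the steep libraries.

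No clear pairing of mice by replicate number was seen, and correlations alone cannot exclude one. Over 88 pairs of libraries with the same number, correlations of deviations ran from -0.696 to 0.647, with 31 above 0.1, and 5 of 43 libraries correlated best with their own number. The replicate block gave 0 calls for combination against isotype (Pou2af1 -1.02, adjusted p = 0.0853) and did not change the other counts. Depth limits Tnfrsf17 and Derl3 in saline mice, where single libraries held 3 and 7 reads.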
